A study of Mus musculus with 23 samples.

Results

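The mTORC1 kinase complex drives protein synthesis and growth when nutrients and insulin are plentiful, and a set of inhibitors slows it under fasting, stress and DNA damage. Described here are 10 genes of that braking system and of its best known outputs, Ddit4, Sesn1, Sesn2, Sesn3, Tsc1, Tsc2, Deptor, Eif4ebp1, Eif4ebp2 and Eif4ebp3. They were taken by symbol from the deposited table of 16259 genes, and all 10 were found. DDIT4 (also called REDD1) acts upstream of the TSC1-TSC2 complex, and the sestrins also restrain mTORC1, SESN2 as a leucine sensor. TSC1 and TSC2 together switch off the activator RHEB, and DEPTOR binds mTOR itself. The 4E-BPs encoded by the Eif4ebp genes hold the cap-binding protein eIF4E until mTORC1 phosphorylates them, so they restrain translation as mTORC1 targets rather than as mTORC1 inhibitors. These proteins are controlled largely by phosphorylation, which RNA does not show.

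RNA from whole proximal small intestine was sequenced in 23 libraries, 11 from Ddit4-/- mice (KO) and 12 from wild-type mice (WT). Doxorubicin, a DNA-damaging chemotherapy, had been given intraperitoneally at 20 mg/kg to the mice of 15 libraries, and 8 libraries came from untreated mice. The doxorubicin libraries were taken 2, 6, 12 or 24 h after the drug from mice fed ad libitum (4 WT and 3 KO libraries) or fasted for 24 h and then refed (4 WT and 4 KO), the state called prefasted below. The untreated libraries were, in each genotype, 1 from a mouse fed ad libitum and 1 from a mouse fasted for 24 h, both at 0 h, and 1 each after 2 h and 6 h of refeeding. Each combination had 1 library, and the KO library fed ad libitum at 2 h after doxorubicin was not analysed here. Age, strain and the structure of the null allele are not stated in the labels.

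Libraries held 11418115 to 23428519 reads in genes. A value is a read count divided by a library factor, called normalized reads below, and 1 read was worth 0.705 to 1.67 of them. Enterocyte markers were abundant in all 23 libraries, with Vil1 between 38680 and 70070 normalized reads. Titles and drug labels conflict for the 4 WT prefasted doxorubicin libraries, whose drug label was used. In 3 KO untreated libraries (ad libitum, fasted, refed 2 h) at most 5 reads fell on 4 Y-linked genes although every mouse is labelled male. Pancreatic acinar transcripts were high in the WT untreated library refed for 6 h and in the KO fasted library. Fat tissue markers varied too, given here as their mean log2 deviation from the average of the 23 libraries. It was 2.58 and 3.75 in the WT and KO untreated libraries refed for 2 h. It reached 4.04 in the WT ad libitum library 2 h after doxorubicin and -3.13 in the WT fasted library. The part of fat content in the results below was not tested. KO and WT libraries of a condition stand in for replicates, so the p-values below reflect the spread among these samples alone, part of which may be technical. In whole tissue, fewer cells of a type and less RNA per cell cannot be told apart.

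Sesn1 and Sesn2 were the brakes whose levels separated refed from other untreated mice, and their promoters are therefore shown, from 250 bases before to 50 bases after the RefSeq transcript start (GRCm38.p6, the sequence of mm10). Sesn1 has 2 such windows, of which the one shown is chr10:41810324-41810623 on the plus strand. The other is chr10:41887189-41887488 on the plus strand. The window of Sesn2 is chr4:132510407-132510706 on the minus strand. Capitals mark a match to the FOXO element TGTTTAC, which insulin-repressed FOXO factors bind.
Sesn1: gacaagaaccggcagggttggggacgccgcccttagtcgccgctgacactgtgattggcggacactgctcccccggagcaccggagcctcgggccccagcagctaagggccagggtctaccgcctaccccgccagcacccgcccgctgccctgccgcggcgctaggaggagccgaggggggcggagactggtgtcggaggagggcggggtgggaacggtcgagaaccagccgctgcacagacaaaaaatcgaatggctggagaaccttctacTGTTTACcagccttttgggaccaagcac
Sesn2: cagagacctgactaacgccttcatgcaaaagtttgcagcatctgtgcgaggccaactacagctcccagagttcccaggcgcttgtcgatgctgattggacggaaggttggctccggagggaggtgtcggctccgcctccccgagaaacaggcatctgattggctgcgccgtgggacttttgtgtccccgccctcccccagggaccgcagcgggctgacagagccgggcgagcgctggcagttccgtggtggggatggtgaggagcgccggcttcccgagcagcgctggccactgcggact
The Sesn1 match begins at base 23 after the start, and 3.65% of 32851 RefSeq promoter windows hold these letters on either strand. Windows of 7 of the 10 genes were searched on both strands, and Sesn1 was the only gene with a match to any of 4 motifs. The match lay in the Sesn1 window shown, and the other Sesn1 window held none. The other motifs were the E-box CACGTG (in 7.15% of all windows), the core TGATG of the ATF4 response element (39.3%) and the cyclic AMP element TGACGTCA (1.79%). A match describes letters and says nothing of binding in these mice.

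Levels per kilobase of exon, averaged over libraries as normalized reads, placed Sesn1 (465) and Eif4ebp2 (422) well above the other genes. Ddit4 in WT libraries (158), Eif4ebp3 (148) and Eif4ebp1 (147) lay close together, Tsc2 (71.9), Deptor (58.6) and Sesn2 (57.5) came next, and Tsc1 (17.1) and Sesn3 (14.6) were lowest. The 10 genes differed just as much in how far they varied. Over 23 libraries the SD of the log2 values was 1.56 for Eif4ebp3, 0.89 for Deptor and 0.79 for Sesn1, against 0.20 for Tsc2 and 0.22 for Eif4ebp2, and the median over the 11939 genes that averaged 10 or more normalized reads was 0.41. A moderated F test over the 12 conditions (limma, Benjamini-Hochberg adjustment over 11939 genes) passed adjusted p 0.05 for 3 of the 9 genes other than Ddit4, which KO libraries lack, while 15.3% of all genes passed. They were Deptor (adjusted p = 0.0038), Eif4ebp3 (adjusted p = 0.0052) and Sesn2 (adjusted p = 0.010), and Sesn1 had an adjusted p of 0.13.

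**Figure D1:**
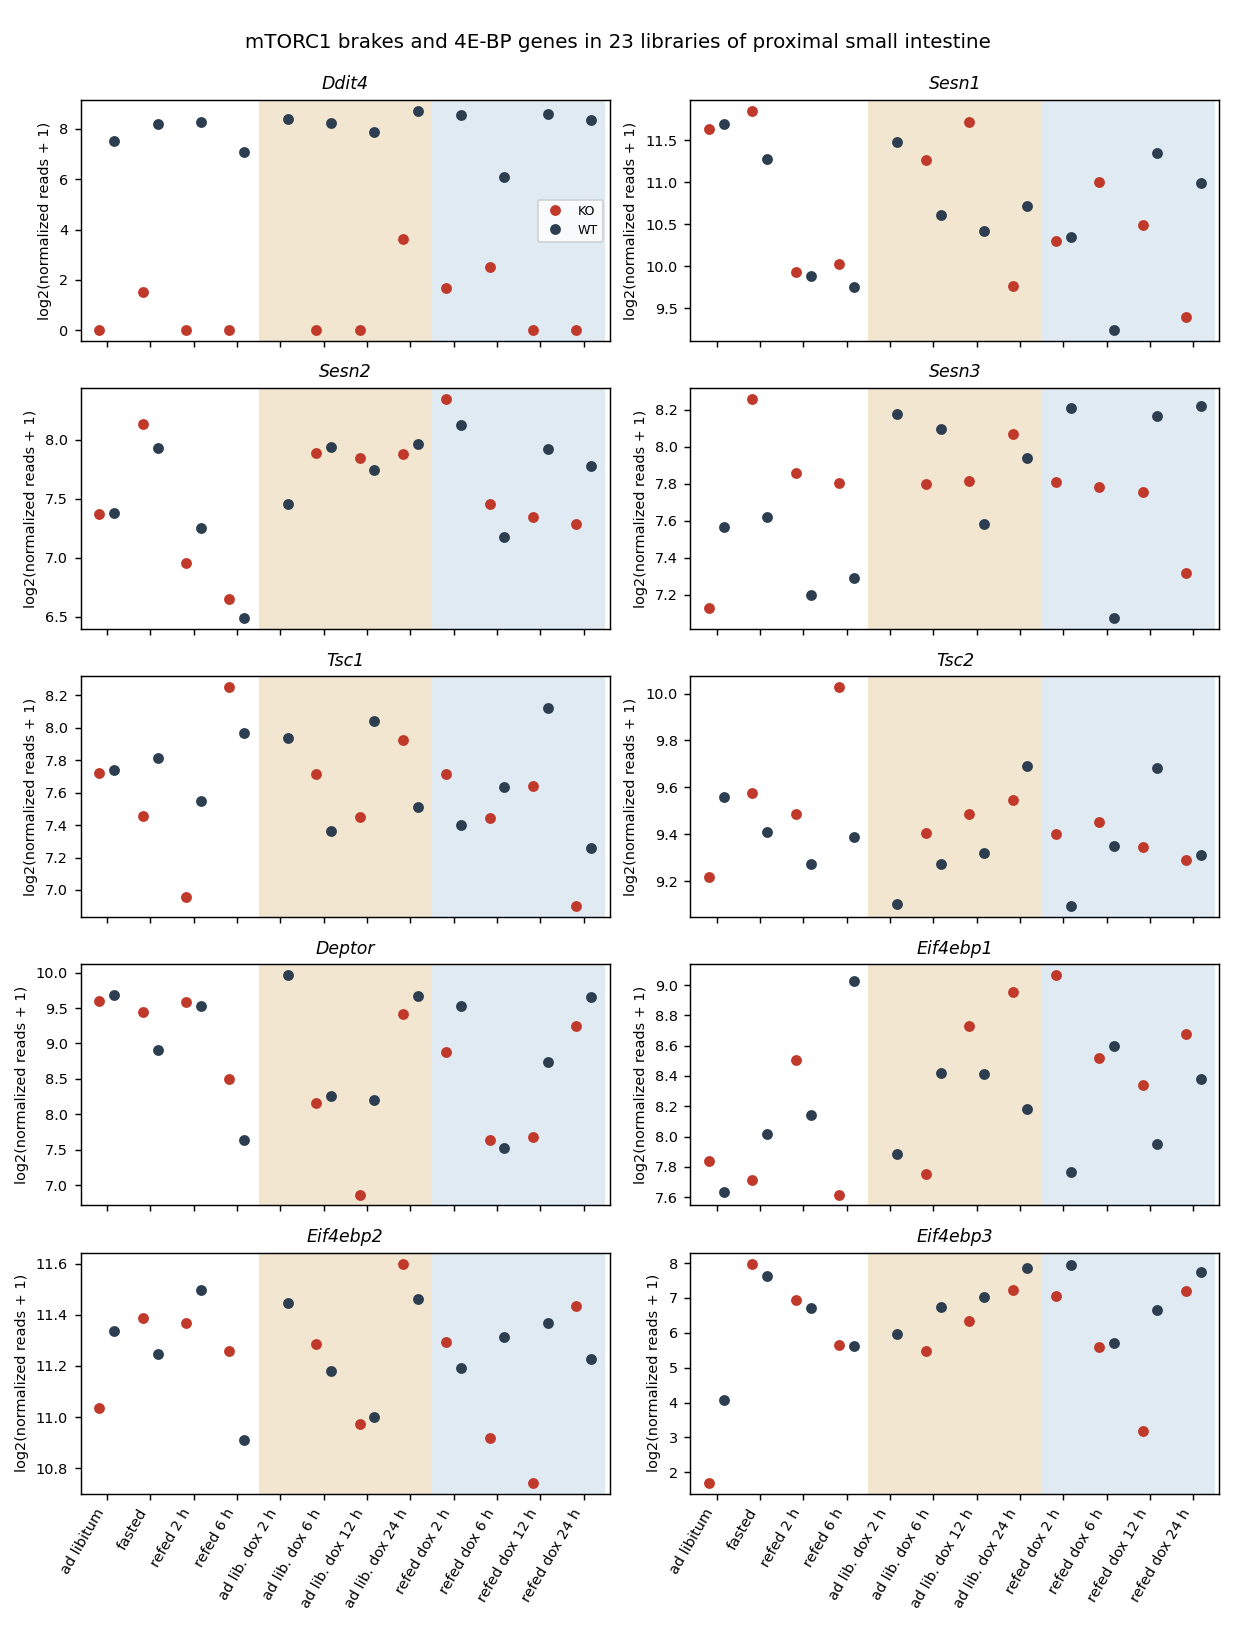
Each panel shows 1 gene as log2(normalized reads + 1) in 23 libraries, with the 12 conditions on the x axis, KO libraries in red on the left and WT libraries in dark blue on the right. White, tan and blue backgrounds mark untreated, ad libitum doxorubicin and prefasted doxorubicin libraries. Vertical scales differ between panels, and Eif4ebp3 spans 2.26 to 253 normalized reads while Tsc2 spans 545 to 1042.

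The deleted gene was examined first. Ddit4 (mm10, chromosome 10, 59949669 to 59951834, minus strand, 3 exon blocks) averaged 1.83 ± 3.49 normalized reads in KO libraries (SD, n = 11) and 278 ± 106 in WT libraries (SD, n = 12). KO libraries held at most 16 reads and 7 of them held 0, which allows up to 3 reads or 2.4 to 3.69 normalized reads per library, against 48 to 399 reads in WT libraries. The groups did not overlap, and the log2 difference was -7.09 ± 0.42 (SE; adjusted p = 1.3e-07; lower in 11 of 11 pairs). Of the 10 genes, Ddit4 was the only one past the threshold between genotypes, where 0.578% of all genes passed.

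Among WT libraries, where Ddit4 can be read, Ddit4 ranged from 66.9 to 414 normalized reads, with 1 library for each condition and so no replicate check. Without drug, Ddit4 had 289 normalized reads in the fasted mouse and 180 in the ad libitum mouse. It had 304 after 2 h of refeeding and 134 after 6 h. Thus the fasted and 2 h refed libraries stood above the ad libitum one, and the 6 h refed library below it. After doxorubicin, Ddit4 in prefasted mice had 375, 66.9, 379 and 329 normalized reads at 2, 6, 12 and 24 h, and in ad libitum mice 337, 296, 230 and 414. At 6 h the prefasted library was the lowest of all 12 WT libraries. At 2 h and 12 h the prefasted library was the higher of the pair, and at 24 h the ad libitum one was. Titles conflict with the drug label for each of these prefasted doxorubicin libraries. Prefasted minus ad libitum in WT mice alone was -0.40 ± 0.38 on the log2 scale (SE, 4 pairs, higher in 2 and lower in 2; adjusted p = 0.996), and 0 of 10 genes passed by limma, edgeR or DESeq2, or at an unadjusted p under 0.05, while 0.0168% of all genes passed. The 3 genes whose log2 values ran most alike with Ddit4 over the 12 WT libraries were Cdip1, Eml3 and Phldb3 (Pearson r 0.94, 0.93 and 0.93, as a description among 9371 genes with a mean of at least 50).

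Loss of Ddit4 was next compared for the other brakes and outputs, none of which passed the threshold. Eif4ebp3, the third 4E-BP gene, had the largest fitted difference of the 9, -0.85 ± 0.30 (log2, SE; adjusted p = 0.24 by limma). It averaged 94.0 ± 74.8 normalized reads in KO libraries (n = 11) and 125 ± 77.9 in WT libraries (SD, n = 12). KO libraries were lower in 7 of 7 doxorubicin pairs and 8 of 11 pairs in all, with ranges that overlapped widely. The sestrins, both TSC genes, Eif4ebp1 and Eif4ebp2 had fitted differences between -0.11 and 0.11, each smaller than its standard error, and Deptor -0.21 ± 0.17 (adjusted p = 0.67). Ddit4l, the relative of Ddit4 that also inhibits mTORC1, had a difference of -0.99 (adjusted p = 0.37).

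The genotype difference of Sesn1 varied in sign among the doxorubicin pairs. KO minus WT on the log2 scale was 0.65 and 1.76 in the 6 h pairs (ad libitum and prefasted), 1.3 and -0.85 in the 12 h pairs and -0.95 and -1.59 in the 24 h pairs, and -0.04 in the prefasted pair at 2 h. Both pairs were above 0 at 6 h and below 0 at 24 h, and those at 12 h went opposite ways. The contrast between times was not tested. At 24 h Sesn1 had 869 and 674 normalized reads in KO libraries and 1678 and 2028 in WT libraries. At 6 h it had 2458 and 2048 in KO libraries and 1561 and 603 in WT libraries. The fit over all pairs gave 0.10 ± 0.24 (adjusted p = 0.91). The genotype difference of Deptor changed with drug by -0.87 ± 0.28 (log2, SE), which did not pass (adjusted p = 0.98). KO minus WT for Deptor ranged from -0.09 to 0.87 in the 4 untreated pairs and from -1.34 to 0.11 in the 7 doxorubicin pairs. The KO libraries short of Y-linked reads were all untreated, and every doxorubicin KO library held such reads. A change of the genotype difference with drug therefore cannot be told apart from whatever sets those untreated KO libraries apart. Neither interaction passed for any of the 9 genes by limma, edgeR or DESeq2, and 0% of all genes passed for the knockout effect with drug and 0% for the knockout effect with prefeeding state. At an unadjusted p under 0.05 the counts were 1 of 9 (Deptor) and 0 of 9.

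**Figure D2:**
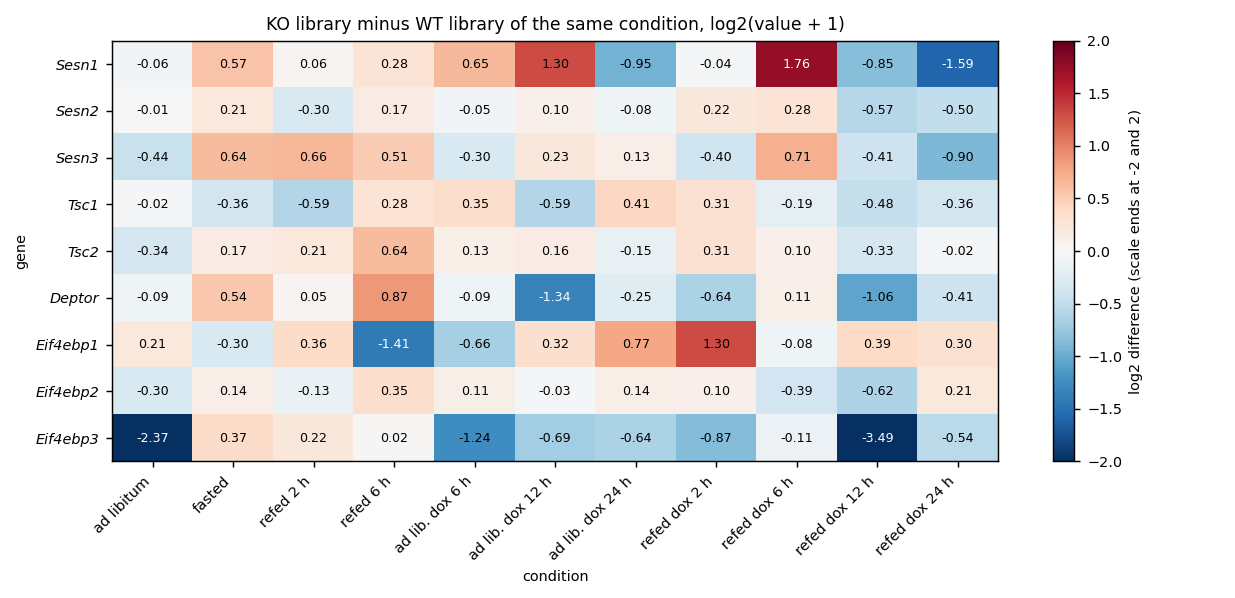
Each cell is the log2(value + 1) of the KO library minus that of the WT library of the same condition, with 9 genes down the page and 11 conditions across, red for higher and blue for lower in KO. Sesn1 is 1.76 in prefasted mice at 6 h after doxorubicin and -1.59 at 24 h, and Eif4ebp3 is below 0 in the 7 doxorubicin columns.

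Fasting for 24 h was compared with ad libitum feeding in untreated mice, and the change lay in 1 4E-BP. Eif4ebp3 rose to 253 and 196 normalized reads in the fasted KO and WT libraries, against 2.26 and 15.9 in the ad libitum KO and WT libraries. The fasted pair lay above the ad libitum pair without overlap, and these ad libitum values were the lowest of all 23 libraries except for 8.05 in the KO prefasted library 12 h after doxorubicin. The log2 difference was 4.91 ± 0.70 (SE; adjusted p = 0.0044 by limma; higher in both genotypes). The KO ad libitum value rests on 2 reads, so the size depends on the pseudocount, and with 5 in place of 1 it was 4.21. Of the 9 genes, 1 rose and 0 fell, while 0.343% of all genes passed. The call does not hold without the KO ad libitum library (4.08, adjusted p = 0.10) or the KO fasted library (4.24, adjusted p = 0.099). It was 3.54 without the 3 KO libraries short of Y-linked reads (adjusted p = 0.57) and 4.19 without the 2 with pancreatic transcripts (adjusted p = 0.089), and over all alternatives the adjusted p ran from 5.3e-09 to 0.57.

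The remaining genes did not pass for fasting. Sesn2, a stress-induced leucine sensor that restrains mTORC1, had 280 and 243 normalized reads in fasted KO and WT libraries and 165 and 166 in ad libitum KO and WT libraries (log2 0.66 ± 0.25; adjusted p = 0.54). Those pairs did not overlap. Sesn3, a FOXO-regulated sestrin, had 305 and 196 in fasted and 139 and 188 in ad libitum libraries (KO and WT), a difference of 0.59 ± 0.36 (adjusted p = 0.83). Sesn1, Tsc1, Tsc2, Eif4ebp1 and Eif4ebp2 had fitted differences between -0.11 and 0.13, and Deptor -0.46 ± 0.39 (adjusted p = 0.91).

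Refeeding lowered Sesn2, and Sesn1 stood lower in the refed libraries without passing the test. After 6 h of refeeding Sesn2 fell to 99.5 and 88.6 normalized reads in KO and WT libraries, against 280 and 243 in the fasted ones. The log2 difference was -1.46 ± 0.25 (SE; adjusted p = 0.0072), and 1 of 9 genes fell and 0 rose, while 7.02% of all genes passed. At 2 h Sesn2 had 123 and 152 (log2 -0.93 ± 0.25; adjusted p = 0.19), and 0 of 9 genes passed by limma, edgeR or DESeq2 (2 of 9 at an unadjusted p under 0.05), while 0.251% of all genes passed. The 6 h call for Sesn2 does not hold with array weights (adjusted p = 0.075), without the KO fasted library (-1.32, adjusted p = 0.11), without the 3 KO libraries short of Y-linked reads (-1.33, adjusted p = 0.21) or without those with pancreatic transcripts (-1.18, adjusted p = 0.14). Over all alternatives the adjusted p ran from 8.5e-05 to 0.21. Crypt markers moved with this comparison, summing to 752 and 784 normalized reads in KO and WT libraries at 6 h of refeeding, against 4342 and 2017 in the fasted ones. Of 8 crypt markers 3 fell, where 7.02% of all genes passed, with log2 differences of -2.77 for Mcm5, -2.23 for Olfm4 and -1.82 for Top2a. Of 8 Paneth markers Defa30 fell by 2.15. None of these 4 passed without the 3 KO libraries short of Y-linked reads or without those with pancreatic transcripts. Their part in the Sesn2 result was not tested.

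Sesn1, the p53- and FOXO-induced sestrin, had 978 and 940 normalized reads at 2 h and 1046 and 861 at 6 h of refeeding (KO and WT), against 3676 and 2476 in fasted and 3178 and 3317 in ad libitum libraries. All 4 refed libraries lay below the 4 others without overlap. The fitted differences from fasting were -1.65 ± 0.56 at 2 h (adjusted p = 0.34) and -1.67 ± 0.56 at 6 h (adjusted p = 0.079), so the separation did not pass the test across all genes. Sesn2 separated the same 4 refed libraries (88.6 to 152) from the 4 others (165 to 280), and 2 of 9 genes were lower without overlap in this split, chosen after the values were seen, while 2.74% of all genes were. Sesn3 and the other genes overlapped between these libraries. Deptor at 6 h of refeeding had 362.5 and 197.3 normalized reads (KO and WT), against 696.5 and 479.4 in fasted libraries. Its difference there was -1.11 ± 0.39 (adjusted p = 0.089 by limma). In the 6 h comparison 4 of 9 genes had an unadjusted p under 0.05 by limma. Eif4ebp3 had 122 and 105 normalized reads at 2 h and 49.2 and 48.5 at 6 h (KO and WT), below the fasted 253 and 196, and its difference at 6 h was -2.17 ± 0.70 (adjusted p = 0.070 by limma, 0.0070 by DESeq2). Adding the 6 h prefasted doxorubicin libraries, the 4 libraries refed for 6 h held 47.7 to 51.5 normalized reads of Eif4ebp3. These values rest on 29 to 40 reads per library. The share of genes with a range this narrow was not determined, so the range is a description and no result.

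Doxorubicin in mice fed ad libitum was set against the untreated ad libitum pair at 0 h, so drug and time since injection cannot be told apart. Eif4ebp3 rose at every time tested. It had 44.0 and 106 normalized reads in KO and WT libraries at 6 h, 80.4 and 130 at 12 h, and 148 and 232 at 24 h, against 2.26 and 15.9 in untreated KO and WT libraries. Each of these 6 libraries lay above both untreated ones. The log2 differences were 3.22 ± 0.70 (adjusted p = 0.033), 3.80 ± 0.70 (adjusted p = 0.0047) and 4.65 ± 0.70 (adjusted p = 0.0030) at 6, 12 and 24 h. With edgeR the 6 h call does not hold (adjusted p = 0.069). These comparisons share their untreated pair with each other and with the fasting comparison. Without the KO untreated ad libitum library the differences were 2.39 (adjusted p = 0.36), 2.96 (adjusted p = 0.082) and 3.81 (adjusted p = 0.066), and without all 3 KO libraries short of Y-linked reads they were 2.51 (adjusted p = 0.40), 3.09 (adjusted p = 0.098) and 3.94 (adjusted p = 0.084).

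Deptor, which binds mTOR and inhibits its kinase, fell at 12 h. It had 116 and 294 normalized reads in KO and WT libraries at 12 h after doxorubicin, against 774 and 822 in the untreated ad libitum libraries. The log2 difference was -2.10 ± 0.39 (SE; adjusted p = 0.0047). At 6 h it had 286 and 304 (-1.43 ± 0.39; adjusted p = 0.085 by limma, 0.011 by DESeq2 and 0.017 with array weights), and at 24 h 683 and 812 (-0.10 ± 0.39; adjusted p = 0.93). The 12 h call does not hold without the KO library at 12 h (-1.48, adjusted p = 0.096) or the KO untreated library (-2.04, adjusted p = 0.052), and it was -1.97 without the 3 KO libraries short of Y-linked reads (adjusted p = 0.091).

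Counted together by limma, 1 of 9 genes rose at 6 h (1.34% of all genes passed), 1 rose and 1 fell at 12 h (9%), and 1 rose at 24 h (3.11%). By DESeq2 Deptor also fell at 6 h. The other genes did not pass by limma, edgeR or DESeq2. Sesn1 at 24 h stood at 869 and 1678 normalized reads in KO and WT libraries, against 3178 and 3317 in untreated ones (-1.43 ± 0.56; adjusted p = 0.17). Sesn2 stood 0.42 to 0.55 higher on the log2 scale at the 3 times (lowest adjusted p = 0.26), and Eif4ebp1, the most studied 4E-BP, 0.35 to 0.84 higher (lowest adjusted p = 0.25). Tsc1 and Tsc2 had differences from -0.19 to 0.23.

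Markers of cell types moved with these comparisons. At 12 h, where 9% of all genes passed, 5 of 8 stem and proliferating crypt markers fell. The 8 summed to 300 and 430 normalized reads in doxorubicin KO and WT libraries, against 2784 and 4195 in untreated ones. The 8 Paneth cell markers summed to 8047 and 4412 against 21970 and 27810, and 2 of 8 fell. The 10 enterocyte markers summed to 1863000 and 1566000 against 1091000 and 930800, and 2 of 10 rose, Apoa1 and Apob. The 8 smooth muscle markers summed to 3730 and 3318 against 7511 and 5040, and 4 of 7 tested fell. Among them Mylk had 2083 to 4731 normalized reads over the 23 libraries, and the highest median of the others was 188 (Myh11). Mylk did not pass at 12 h (-0.51, adjusted p = 0.27 by limma). Without the 3 KO libraries short of Y-linked reads 4 of those 5 crypt, 1 of the 2 Paneth and 0 of the 4 smooth muscle markers passed. Of the 2 enterocyte markers 0 passed there. At 6 h 2 of 8 crypt markers fell, where 1.34% of all genes passed. At 24 h 2 of 8 crypt and 2 of 7 smooth muscle markers fell, where 3.11% passed. Lgr5 and Ascl2 were at 0 in 1 library each, and the other crypt and Paneth markers in none. With the smooth muscle level as a covariate, chosen after seeing the data, Eif4ebp3 at 12 h was 2.44 (adjusted p = 0.31) and Deptor -2.11 (adjusted p = 0.17). The part of crypt, Paneth and enterocyte content in the result was not tested.

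**Figure D3:**
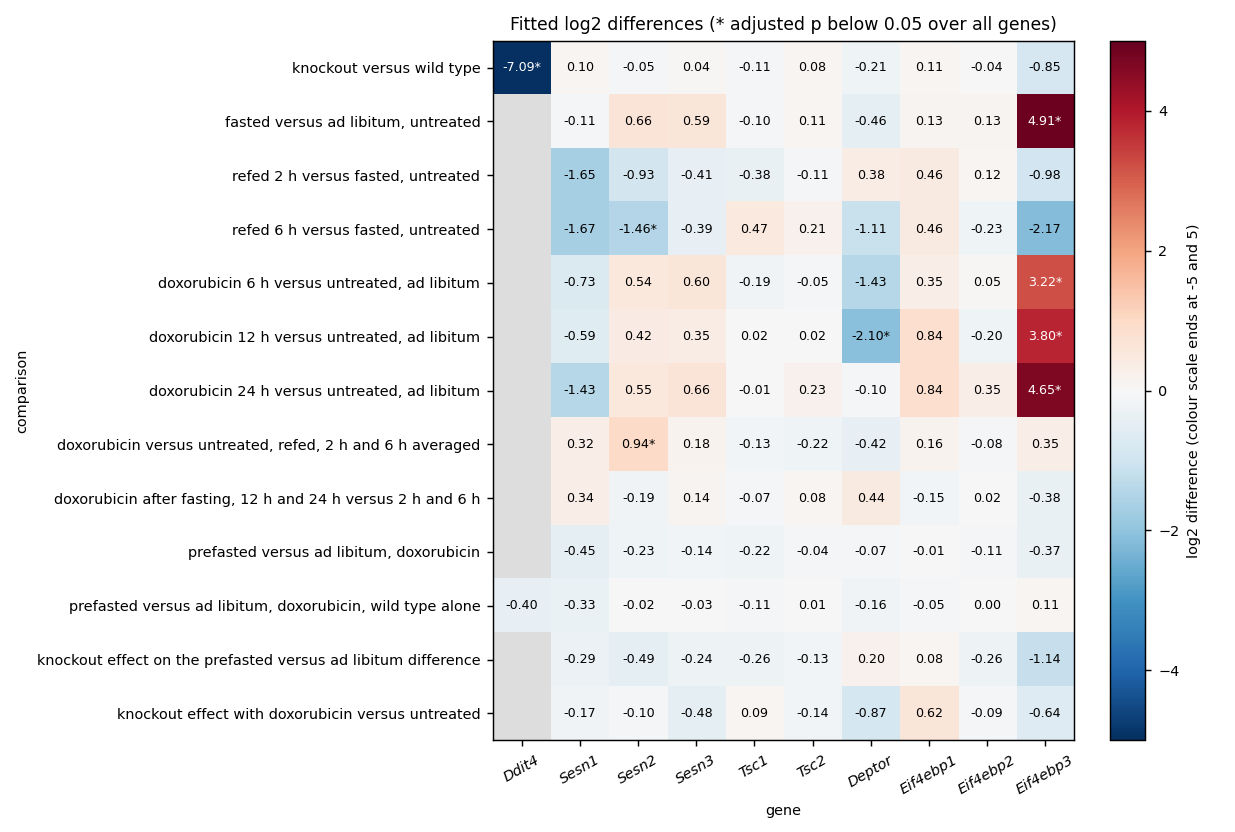
Fitted log2 differences of 10 genes (columns) in 13 comparisons (rows), red for higher and blue for lower in the first-named group, with an asterisk where the adjusted p over all genes is below 0.05. Ddit4 is left grey where KO libraries enter a comparison that is not about genotype. The asterisks fall on Ddit4, Sesn2, Deptor and Eif4ebp3, with Eif4ebp3 at 4.91 for fasting and 4.65 for doxorubicin at 24 h.

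Doxorubicin was also compared with no drug at the same refeeding times, which removes the time difference but not differences in tissue content. Crypt markers summed to 2748 and 1767 normalized reads in KO and WT doxorubicin libraries at 2 h, against 3769 and 8236 in untreated ones. At 6 h they summed to 581 and 773 against 752 and 784. Paneth markers summed to 30780 and 8226 against 23620 and 55400 at 2 h. At 6 h their sums were 8094 and 4280 against 3190 and 6585. The part of these cells in the comparison was not tested. Sesn2 rose, to 324 and 279 normalized reads at 2 h and 174 and 144 at 6 h in KO and WT doxorubicin libraries, against 123 and 152 at 2 h and 99.5 and 88.6 at 6 h in KO and WT untreated libraries. The drug library was higher in 4 of 4 pairs, by 0.69 to 1.39 on the log2 scale, and the averaged difference was 0.94 ± 0.18 (SE; adjusted p = 0.032). It was 1 of 9 genes that rose, and 0 fell, while 0.628% of all genes passed. Leaving out any 1 of several libraries gave differences of 0.85 to 1.03 with adjusted p between 0.051 and 0.14, so the call rests on the full set, and leaving out the 3 KO libraries short of Y-linked reads gave 0.88 (adjusted p = 0.23). Without the WT doxorubicin libraries, whose titles conflict with the drug label, the difference was 1.06 (adjusted p = 0.099). Eif4ebp3 differed by 0.35 ± 0.50 here (adjusted p = 0.79), and Deptor by -0.42 ± 0.28 (lower in 4 of 4 pairs; adjusted p = 0.49).

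Prefasted and ad libitum mice given doxorubicin were compared in 7 pairs of the same genotype and time, a comparison that bears on fasting and genotoxic injury of the small intestine, the subject in the series title. None of the 9 genes passed by limma, edgeR or DESeq2, none had an unadjusted p under 0.05, and 0% of all genes passed by limma. Differences ran from -0.45 ± 0.24 for Sesn1 (lower in 5 of 7 pairs; adjusted p = 0.75) to -0.01 ± 0.15 for Eif4ebp1, with a median of -0.14 over the 9 genes and -0.01 over all genes. Single pairs still differed widely, and prefasted minus ad libitum for Eif4ebp3 ran from -3.17 to 1.96. Every WT pair holds a prefasted library whose title conflicts with its drug label. Within prefasted doxorubicin mice, 12 h and 24 h libraries against 2 h and 6 h libraries gave 0 of 9 genes by limma, edgeR or DESeq2 (0 at an unadjusted p under 0.05), while 0.0921% of all genes passed.

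Deptor was also described by the time label, which counts hours after drug or refeeding and is 0 h for the other untreated libraries. The 10 libraries labelled 6 h or 12 h, with drug or without and in both feeding states, had 116 to 427 normalized reads (median 245). The 13 libraries labelled 0, 2 or 24 h had 470 to 995 (median 737). No library crossed the gap, and of the 10 genes Deptor alone separated in this split, which was chosen after the values were seen and is a description with no test. In the same split 4 of 11939 genes, 0.0335%, were lower without overlap, and the others were Auh, Dnajc2 and Sec11a. That share lends the separation no weight, because the split was drawn with the Deptor values known. Sec11a, a subunit of the signal peptidase, was also the gene most like Deptor over the 23 libraries (Pearson r 0.85), ahead of Pbld1 and Nipsnap1 (0.83 each). Hour of the day is not in the labels.

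**Figure D4:**
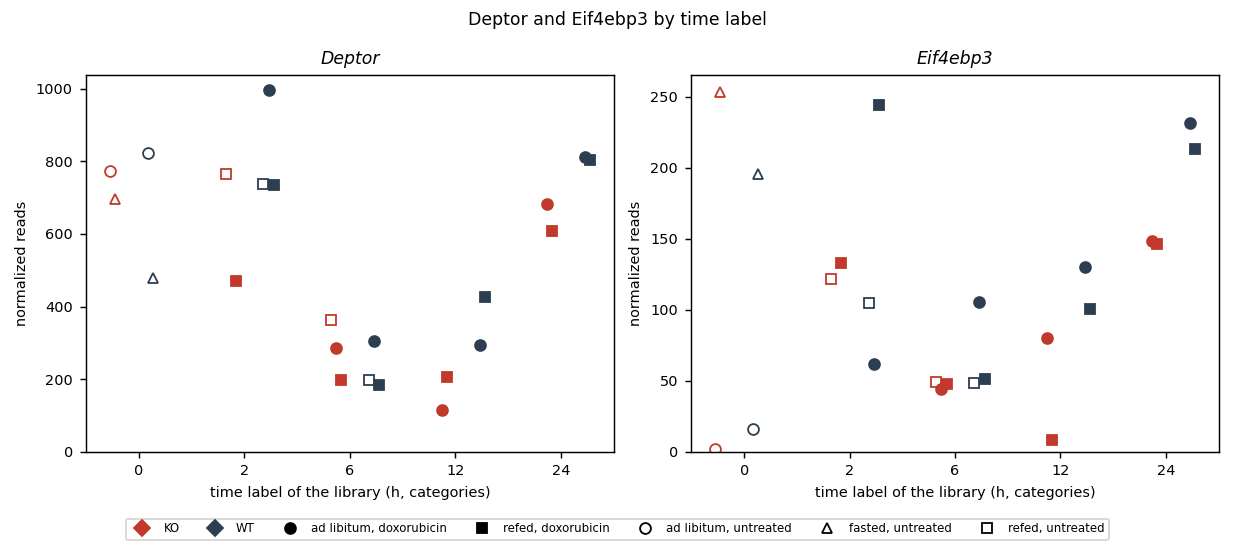
Normalized reads of Deptor and Eif4ebp3 against the time label in hours, drawn as evenly spaced categories, with KO libraries in red on the left and WT libraries in dark blue on the right of each time, open symbols untreated and filled symbols doxorubicin. Deptor lies between 116 and 427 at 6 and 12 h and at 470 or above at the other times, whereas the ad libitum untreated pair holds 2 of the 3 lowest values of Eif4ebp3, beside 8.05 in the KO prefasted library at 12 h.

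The 4E-BP family was uneven in composition. Eif4ebp2, the most abundant 4E-BP per kilobase, made up 48.6% to 80.1% of the family (median 57.4%), Eif4ebp1 10.6% to 37.4% and Eif4ebp3 0.647% to 39.5%. Eif4ebp2 itself stayed between 1714 and 3104 normalized reads and passed in 0 of the 13 directional comparisons. Sesn1 made up 72.0% to 93.4% of the sestrin family, Sesn2 5.34% to 22.3% and Sesn3 1.06% to 5.77%. Both TSC genes, which act as an obligate pair, passed in none of these comparisons and ranged from 118 to 304 (Tsc1) and 545 to 1042 (Tsc2) normalized reads.

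**Figure D5:**
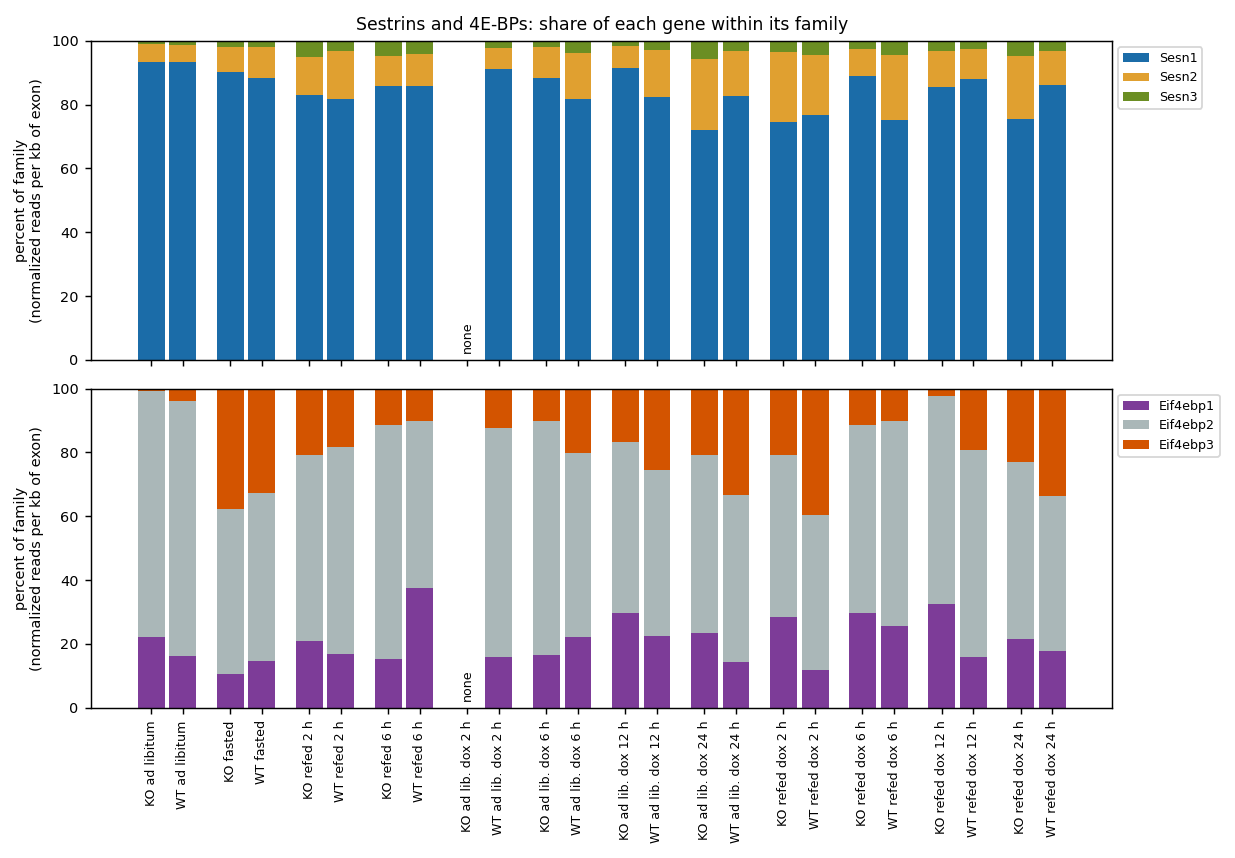
Share of each sestrin (top) and each 4E-BP (bottom) in its family as percent of normalized reads per kilobase of exon, 1 bar per library with the KO bar left of the WT bar in each condition, and "none" where no library was used. Sesn1 holds at least 72.0% in all 23 libraries, and the share of Eif4ebp3 runs from 0.647% to 39.5%.

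The Eif4ebp3 values carry a limit of annotation. The gene shares 501 of its 744 exon bases (67.3%) with a readthrough transcript that joins it to its upstream neighbour Ankhd1 on the same strand, and reads could not be divided between them here. Ankhd1 itself ran from 183 to 639 normalized reads, and its differences were 0.25 ± 0.36 for fasting (adjusted p = 0.96) and 0.70 ± 0.36 for doxorubicin at 24 h (adjusted p = 0.30), where Eif4ebp3 had 4.91 and 4.65. Tsc2 shares 693 exon bases (7.20%) with Pkd1 on the opposite strand, and the libraries do not keep strand. The genes most like Eif4ebp3 over 23 libraries were Ptgr1, an enzyme that reduces prostaglandin and leukotriene derivatives, Ube2e3 and Cyp27a1 (Pearson r 0.88, 0.82 and 0.81).

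The wider pathway was read from fixed lists. Of 11 genes of the mTOR complexes and RHEB, 0 passed in the 13 directional comparisons. Of 26 amino acid sensing genes at the lysosome, Castor2, a partner of the arginine sensor CASTOR1, was the only one to pass, rising by 1.03 ± 0.21 at 12 h after doxorubicin (adjusted p = 0.0080), where 9% of all genes passed. Of 14 insulin and AMPK signalling genes upstream of TSC2, Pik3ca fell with 6 h of refeeding (-0.69 ± 0.19, adjusted p = 0.038), where 7.02% of all genes passed. Prkag2, an AMPK gamma subunit, fell at 12 h after doxorubicin (-0.67 ± 0.17, adjusted p = 0.022), where 9% passed.

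Among 15 targets and cap-binding partners of mTORC1 signalling, Pdcd4, an inhibitor of the eIF4A helicase, fell with 6 h of refeeding (-1.56 ± 0.36; adjusted p = 0.021) and at 12 h after doxorubicin (-1.39 ± 0.36; adjusted p = 0.025). Eif4b, a helper of that helicase, fell with 6 h of refeeding (-0.77 ± 0.22; adjusted p = 0.044). Eif4e3, a relative of eIF4E, rose at 12 h (1.35 ± 0.35; adjusted p = 0.024) and at 24 h (1.43 ± 0.35; adjusted p = 0.034). Of the 15 genes, 2 passed with refeeding, 2 at 12 h and 1 at 24 h, where 7.02%, 9% and 3.11% of all genes did.

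Known inducers of the brakes were read from 4 further lists beside them. Of 12 p53 targets, 3 rose at 12 h and 3 at 24 h after doxorubicin, where 9% and 3.11% of all genes passed (1 and 0 of the 12 without the 3 KO libraries short of Y-linked reads). With the drug in refed mice 2 of 12 rose, beside 0.628% of all genes, where Plk2 had 1.94 ± 0.27 (adjusted p = 0.012) and Trp53inp1 1.19 ± 0.24 (adjusted p = 0.037) beside 0.94 for Sesn2. Of 9 ATF4 targets, Trib3 (1.90 ± 0.33, adjusted p = 0.011) and Slc3a2 (1.09 ± 0.22, adjusted p = 0.024) rose at 6 h in ad libitum mice, where 1.34% of all genes passed. Both also rose at 12 h (1.21, adjusted p = 0.032, and 0.77, adjusted p = 0.037, by limma), where 9% of all genes passed. The other ATF4 targets did not pass at either time. Of 9 glucocorticoid-responsive genes, Fkbp5 alone passed with fasting, rising by 4.49 ± 0.88 (adjusted p = 0.036), where 0.343% of all genes passed. With 6 h of refeeding 4 of the 9 fell, where 7.02% of all genes passed. They were Fkbp5 (-3.56 ± 0.88, adjusted p = 0.026), Sgk1 (-3.12 ± 0.49, adjusted p = 0.0060), Per1 and Tsc22d3. Of 9 FOXO and insulin-repressed genes, Pdk4 fell at 2 h of refeeding (-3.53 ± 0.68, adjusted p = 0.043), where 0.251% of all genes passed. At 6 h of refeeding Pdk4 (-4.00 ± 0.68, adjusted p = 0.0064) and Klf15 (-3.28 ± 0.64, adjusted p = 0.011) fell, where 7.02% passed. The calls of the pathway and inducer lists given above by gene name kept their sign without the 3 KO libraries short of Y-linked reads, and none of them passed there, with adjusted p from 0.085 for Plk2 to 0.84 for Fkbp5 with fasting. Those for fasting and for refeeding did not pass either without the libraries with pancreatic transcripts, with adjusted p from 0.14 for Pdk4 at 6 h to 0.51 for Eif4b. What links these lists to the brakes was not tested.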

How the data were processed

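Poly-A RNA of whole proximal small intestine was sequenced as 150-base read pairs from non-directional libraries, per the labels' protocols. Trim Galore, STAR, DESeq2 and the build mm10 are named, without versions, per the submitters' processing notes, and the counting tool, annotation and gene filter are not given in the sources used here. The deposited table of 16259 genes and 23 libraries holds signal values that the authors made by dividing read counts by 1 factor per library, not log transformed.

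Reads were recovered by dividing each library by the worth of 1 read, and 100% of values were whole within 0.01 of a read. The precision of a value is set by that worth and by 11418115 to 23428519 reads per library. Values were tested as log2(value + 1) for 11939 genes, so fold changes are on that scale and understate the change of low genes. All tests were two-sided with limma 3.58.1 in R 4.3.3 (eBayes with a trend), with Benjamini-Hochberg adjustment over all genes and a threshold of 0.05. The main model had 12 conditions plus genotype over 23 libraries. Prefasting was tested in 7 pairs of the same genotype and time, and interactions were added as terms. Alternatives used edgeR 4.0.16 and DESeq2 1.42.0 on recovered reads, other pseudocounts (0.5 and 5), filters, normalizations, array weights and library subsets. When a library is left out, the remaining one of its condition is assumed to vary like the others. Adding a smooth muscle covariate was chosen after seeing the data. The fits were tested on simulated data.

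The 10 genes, the pathway and marker lists and the comparisons were chosen with earlier results of these data known. The text names the 10 genes, list members past the threshold (up to 3 by p per list and comparison) and, for each gene, up to 3 others among those with the highest Pearson r, of which 1 is not reported here. Exon lengths and overlaps came from GENCODE M21 and promoters from RefSeq (GRCm38.p6).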

Additional observations from a re-analysis of the deposited data

Results flagged for a closer look

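Of the 9 genes other than Ddit4, 4 had a knockout difference, or a drug difference by genotype, of opposite sign in 2 groups of libraries. Each group held 2 differences between single libraries, and the contrast between groups was not tested. Such cases were sought over 9 genes and 4 contrasts. A difference of any size counted, and the share of all genes that meets this rule was not determined. The count is therefore a description and no result about these genes.

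Sesn1 had KO minus WT log2 differences of -0.95 and -1.59 at 24 h after doxorubicin and 0.65 and 1.76 at 6 h, a change of -2.48 between the means, while the 12 h pairs went opposite ways (1.3 and -0.85). Tsc2 moved the same way by a small amount, with -0.15 and -0.02 at 24 h and 0.13 and 0.10 at 6 h, a change of -0.20, while its 12 h pairs were 0.16 and -0.33.

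Eif4ebp1 moved the other way. Its KO minus WT differences were -0.66 and -0.08 at 6 h, 0.32 and 0.39 at 12 h and 0.77 and 0.30 at 24 h, so that the means at 12 h and 24 h stood 0.73 and 0.91 above that at 6 h. In refed mice the drug minus untreated difference of Eif4ebp1 at 2 h and 6 h was 0.56 and 0.90 in KO libraries. It was -0.38 and -0.43 in WT libraries, a gap of 1.13 between the means. The WT drug libraries have titles that conflict with the drug label. The WT untreated 6 h library held 522 normalized reads of Eif4ebp1 and was high in pancreatic transcripts. The KO untreated 2 h library was short of Y-linked reads. Eif4ebp2 had KO minus WT differences of 0.14 and 0.21 at 24 h and -0.03 and -0.62 at 12 h, a change of 0.50, while its 6 h pairs were 0.11 and -0.39.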

How the results depend on the processing

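No single gene's fitted direction reversed among called values, and the knockout call of Ddit4 held in every alternative run. The number of the 9 genes past the threshold moved in other comparisons. Without the 3 KO libraries short of Y-linked reads it was 0 for fasting, 6 h of refeeding, doxorubicin at 6, 12 and 24 h, doxorubicin in refed mice and any condition. With the smooth muscle covariate it was 0 for fasting, for doxorubicin at 6, 12 and 24 h and for doxorubicin in refed mice. Without the libraries with pancreatic transcripts it was 0 for fasting, 0 for 6 h of refeeding and 2 for doxorubicin at 6 h. Without the libraries with conflicting titles it was 3 for 6 h of refeeding, 2 for doxorubicin at 24 h and 0 for doxorubicin in refed mice. For 6 h of refeeding it was 2 with a pseudocount of 5, 2 with DESeq2 and 0 with array weights. For doxorubicin at 6 h it was 0 with every gene tested, 0 with edgeR, 2 with DESeq2 and 2 with array weights, and for doxorubicin in refed mice 0 with array weights. The cause of these moves was not tested.

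Leaving out 1 library at a time gave 1 to 1 gene for knockout, 0 to 1 for fasting, 0 to 2 for 6 h of refeeding, 0 to 2, 0 to 2 and 0 to 1 for doxorubicin at 6, 12 and 24 h, 0 to 1 for doxorubicin in refed mice, 3 to 4 for any condition, and 0 to 0 in the other comparisons. Over all genes DESeq2 called more than limma, with 317 against 69 for knockout, 149 against 41 for fasting, 143 against 30 and 1395 against 838 for 2 h and 6 h of refeeding, and 500, 1577 and 860 against 160, 1074 and 371 for doxorubicin at 6, 12 and 24 h. Without the 3 KO libraries short of Y-linked reads those 7 limma counts were 16, 0, 2, 0, 5, 102 and 17. The test in WT mice alone could not be fitted without the libraries with conflicting titles. Pairing by replicate was not possible, because the labels carry no replicate numbers that could be used as a block. Libraries were matched by condition in the genotype comparison, and by genotype and time in the prefasting one. Genes with few reads, above all Eif4ebp3 in the ad libitum untreated pair (2 and 16 reads in KO and WT), limit how precisely a fold can be stated.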

Other observations

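The genes whose log2 values ran most like each member over the 23 libraries are given as a description, since libraries share depth and tissue content. Sesn1 ran closest to Vdr, the vitamin D receptor (Pearson r 0.79), then to Slc25a45 and Hexim1 (0.74 each). Sesn2 ran closest to Fut4 (0.78), with Star (0.76) also among its 3 nearest, and Sesn3 ran closest to N4bp2l1 (0.70). Tsc2 ran closest to Man2a1 (0.76) and Tsc1 to Ogfod1 and Eif5 (0.66 each). Eif4ebp1 ran closest to Rexo4 (0.71) and Eif4ebp2 to Gas6 (0.80), Pde3a (0.79) and Tbccd1 (0.77).

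Of 8 T cell markers, 3 rose in KO libraries, where 0.578% of all genes passed, Nkg7 by 0.86 ± 0.12 (log2, SE; adjusted p = 0.0027), Gzmb by 0.65 ± 0.12 (adjusted p = 0.019) and Gzma by 0.59 ± 0.13 (adjusted p = 0.041), all by limma. Without the 3 KO libraries short of Y-linked reads Nkg7 passed (0.95, adjusted p = 0.027), while Gzmb (0.67, adjusted p = 0.15) and Gzma (0.50, adjusted p = 0.23) did not. The summed T cell markers ran from 3866 to 11780 normalized reads in KO and from 2943 to 6149 in WT libraries, beside the genotype comparison in which Ddit4 alone of the 10 genes passed. Of 9 glucocorticoid-responsive genes, 4 rose at 12 h and 4 at 24 h after doxorubicin in ad libitum mice, where 9% and 3.11% of all genes passed. Without the 3 KO libraries short of Y-linked reads 3 of the 4 passed at 12 h and 0 of the 4 at 24 h. Fkbp5 was one of them, by 5.45 ± 0.88 at 12 h (adjusted p = 0.0020) and 5.38 ± 0.88 at 24 h (adjusted p = 0.0046). In that subset Fkbp5 passed at 12 h (5.60, adjusted p = 0.046) and not at 24 h (5.54, adjusted p = 0.095).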
